A study of Mus musculus with 18 samples.

Results

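The 10 mature miRNAs described here come from the miR-106b/miR-25 and miR-106a/miR-363 clusters, the paralogs of the oncogenic miR-17/92 cluster. They were selected by name among the 1966 mature miRNAs measured by small RNA sequencing in a mouse model of neuroblastoma, and all 10 were found. The choice was made with earlier results of these data known. The miR-106b/miR-25 cluster contributes mmu-miR-106b-5p, mmu-miR-106b-3p, mmu-miR-93-5p, mmu-miR-93-3p, mmu-miR-25-3p and mmu-miR-25-5p. The miR-106a/miR-363 cluster contributes mmu-miR-106a-5p, mmu-miR-18b-5p, mmu-miR-20b-5p and mmu-miR-363-3p, and the species prefix is left out hereafter.

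The 18 libraries fall into 3 groups. The AG group holds 3 adrenal glands of mice labelled CRE -, which carry no recombinase. The TI group holds 7 tumors of CRE + mice with a Rosa26 transgene for the RNA-binding protein IGF2BP1, of which 6 are labelled IGF2BP1 +/+ and 1 is labelled IGF2BP1 +/-. The TIM group holds 8 tumors labelled IMP1/MYCN, CRE +, in which IGF2BP1 (IMP1) was expressed together with the transcription factor MYCN. A stop cassette flanked by loxP sites precedes each transgene, and the improved Cre is driven by the dopamine beta-hydroxylase (Dbh) promoter, which directs recombination to noradrenergic cells. The AG samples are whole glands, so they also contain the steroid-producing cortex. The labels place 1 TI and 2 TIM tumors in the adrenal gland and 1 TIM tumor at the spine, and they name no site for the other tumors. Table columns give the group of a library but not its mouse, so the libraries were numbered in column order and neither genotype nor site can be assigned to a library. The labels give no ages.

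MicroRNAs guide Argonaute proteins to partly complementary messenger RNAs, chiefly through the seed at bases 2 to 8, and lower the stability and translation of these targets. Each hairpin precursor yields a 5p and a 3p strand, and the strand that Argonaute mostly keeps is called the guide. The miR-17/92 cluster is a direct MYC and MYCN target with a known role in neuroblastoma, and the members described here share 3 of its seeds. Targets of the miR-17 seed include the cell cycle inhibitor Cdkn1a, and those of the miR-25 seed include the cell cycle inhibitor Cdkn1c. The miR-106b/miR-25 hairpins are transcribed within Mcm7, a gene for a subunit of the replicative helicase whose transcription rises in cycling cells. The miR-106a/miR-363 cluster is little expressed in most adult tissues.

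The sequences below, from RefSeq on GRCm38.p6, are shown since the comparisons between clusters rest on shared seeds, printed in capitals, with each miR-17/92 paralog beside the members.
miR-106b-5p: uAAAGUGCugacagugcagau
miR-93-5p: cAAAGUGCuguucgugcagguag
miR-106a-5p: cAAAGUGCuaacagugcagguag
miR-20b-5p: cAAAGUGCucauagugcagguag
miR-17-5p: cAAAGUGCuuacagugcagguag
miR-20a-5p: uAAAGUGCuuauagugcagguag
miR-18b-5p: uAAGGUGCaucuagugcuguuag
miR-18a-5p: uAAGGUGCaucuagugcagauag
miR-25-3p: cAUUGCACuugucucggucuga
miR-363-3p: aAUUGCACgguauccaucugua
miR-92a-3p: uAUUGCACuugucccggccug
The strands opposite to these in the miR-106b/miR-25 hairpins carry 3 seeds that the other members lack, as follows.
miR-106b-3p: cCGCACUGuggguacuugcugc
miR-93-3p: aCUGCUGAgcuagcacuucccg
miR-25-5p: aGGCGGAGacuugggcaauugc

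Counted from 1 at the 5′ end, miR-106a-5p differs from miR-17-5p by the single substitution U10A, while miR-20b-5p differs from miR-20a-5p by U1C and U10C. The substitutions A18U and A20U separate miR-18b-5p from miR-18a-5p. In miR-93-5p, 4 bases differ from miR-17-5p, and miR-25-3p differs from miR-92a-3p at 3 of 21 aligned positions. In contrast, miR-363-3p shares the seed of miR-92a-3p but differs from it at 11 of 21 positions. How reads that match several hairpins were treated is not given in the sources used here, so the values of the near-identical pairs miR-106a-5p and miR-17-5p, miR-20b-5p and miR-20a-5p, and miR-18b-5p and miR-18a-5p are uncertain to the extent that reads were shared.

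On GRCm38.p6, the 3 hairpins of miR-106b/miR-25 lie within 498 bp of the minus strand of chromosome 5, chr5:138165321-138165818, inside Mcm7 at chr5:138164583-138172111. In the GENCODE annotation of the newer GRCm39 build they sit in intron 13 of a 15-exon Mcm7 transcript. The 6 hairpins of miR-106a/miR-363 lie within 875 bp of the minus strand of the X chromosome, chrX:52741693-52742567. In the same annotation, 5 of them are in intron 3 of a 6-exon transcript of the noncoding RNA gene Kis2, and Mir106a is in an intron of 0 of the 6 Kis2 transcripts that span it. The X-chromosomal cluster also encodes second copies of miR-19b-3p and miR-92a-3p, whose mature sequences are identical to those of miR-17/92 and were not counted as members.

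Libraries held 11641696 to 23435621 reads on miRNAs. Levels are CPM, reads set to a common library total, which the authors scaled with trimmed mean of M-values (TMM) factors and deposited, and 3 reads equalled 0.101 to 0.272 CPM. A read is a whole mature miRNA, so levels were compared between miRNAs without a length term, although the cloning efficiency of each sequence was not measured. The limma test was run on log2(CPM + 1) of 726 miRNAs, with an adjusted p-value under 0.05 as the threshold, and log2 fold changes are on this scale. The single miRNA miR-148a-3p took 4.19% to 6.94% of the reads in AG, but 2.29% to 61.9% in TI and 6.53% to 44.2% in TIM, which makes CPM values dependent on the scaling. TI library 5 stood apart from its group, with 2.29% miR-148a-3p, so the calls in TI are also given without it. The other 6 members tested did not pass without it either, the closest being miR-106b-5p, at 1.65 on the log2 scale (limma, adjusted p = 0.064). In TIM, libraries 2 and 5 had the lowest miR-106b/miR-25 levels and the highest numbers of reads. Of 4 neuronal and neuroendocrine markers, 2 were called higher in each tumor type, miR-124-3p and miR-9-5p, while miR-375-3p had log2 fold changes of -1.75 and -2.27 and miR-7a-5p of -0.09 and 0.39, none of which passed. The sum of the 4 had a median of 97056 CPM in AG, 64982 CPM in TI and 91141 CPM in TIM, and miR-124-3p ran from 2.17 to 7.08 CPM in AG, from 34.1 to 493 CPM in TI and from 56.2 to 728 CPM in TIM. The libraries come from bulk tissue, in which fewer cells of a type and less RNA per cell cannot be told apart. The labels list the samples of a group separately without naming the mice, so p-values measure the spread between these libraries.

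The strands of miR-106b/miR-25 had higher group means in both tumor types than in AG, and the miR-106b-3p strand passed the test in both. Ordered by the mean in AG, miR-25-3p was the most abundant member with 1402 ± 204 CPM (SD, n = 3), followed by miR-93-5p with 215 ± 71.3 CPM, miR-106b-3p with 142 ± 27.1 CPM and miR-106b-5p with 40.2 ± 8.91 CPM. The passenger strands miR-93-3p and miR-25-5p were at 3.24 ± 1.72 and 2.58 ± 1.34 CPM. All 6 had a higher mean log2 level than in AG, both in TI and in TIM, with a median log2 fold change of 0.96 in each, against -0.01 and 0.18 over all miRNAs tested. Of all 9 members tested in both clusters, 3 passed in TI and 2 in TIM, where 55.8% and 51.4% of all miRNAs tested did. In miR-106b/miR-25 only miR-106b-3p passed, which is 1 of 6 members in each comparison, while 26.4% of all miRNAs tested were called higher in TI and 25.5% in TIM.

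For miR-106b-3p, the AG libraries measured 139, 116 and 170 CPM. The TI libraries ran from 218 through a median of 491 to 668 CPM, and the TIM libraries from 79.8 through a median of 458 to 668 CPM. Every TI library was above every AG library, as were 7 of 8 TIM libraries, whereas TIM library 2 was below all AG libraries. Such a complete separation in TI was found for 22.0% of the miRNAs tested. The mean level of miR-106b-3p was 3.14-fold that of AG in TI and 2.83-fold in TIM. In limma, the log2 difference from AG was 1.57 ± 0.52 for TI (SE, adjusted p = 0.017) and 1.27 ± 0.51 for TIM (SE, adjusted p = 0.047). Without TI library 5 the former was 1.73 (adjusted p = 0.0097 from limma). Without AG library 1 or AG library 2, the log2 fold change in TI was 1.57 or 1.44, with adjusted p-values of 0.053 and 0.066 from limma. Over all 11 fits that left out 1 library, the log2 fold change in TIM ran from 1.13 to 1.56. The call in TIM was lost in 9 of these fits and kept only without TIM library 2 or TIM library 5. The call in TI was also lost without the TMM factor (1.36, adjusted p = 0.058 from limma), and that in TIM with median ratio scaling (adjusted p = 0.073), without a filter (0.11) and in a fit restricted to AG and TIM (0.079).

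The other strand of this hairpin, miR-106b-5p, carries the miR-17 seed. It measured 48.4, 30.7 and 41.5 CPM in AG. It ran from 36.4 through a median of 131 to 291 CPM in TI and from 20.7 through a median of 141 to 264 CPM in TIM. In TI, 6 of 7 libraries exceeded all AG libraries. In TIM, 6 of 8 libraries exceeded them while libraries 2 and 5 lay below, so the group straddled AG. The log2 fold changes were 1.46 in TI (95% interval -0.07 to 3.0, adjusted p = 0.096 from limma) and 1.33 in TIM (-0.18 to 2.84, adjusted p = 0.13). The same miRNA passed with DESeq2 on the recovered reads, at 1.76 in TI and 1.81 in TIM with adjusted p-values of 0.026 and 0.021. In limma it passed for TI in a fit restricted to AG and TI (1.46, adjusted p = 0.044). It also passed in limma for TIM without TIM library 2 (1.65, adjusted p = 0.039).

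The strand miR-93-5p, which also carries the miR-17 seed, measured 297, 168 and 180 CPM in AG. Its levels ran from 185 through a median of 631 to 959 CPM in TI and from 63.8 through a median of 724 to 1386 CPM in TIM. The TIM libraries spanned the widest range of the 3 groups, with libraries 2 and 5 below AG and 6 of 8 above. The log2 fold changes of 1.13 in TI (adjusted p = 0.25 from limma) and 1.19 in TIM (adjusted p = 0.23) did not pass. DESeq2 gave 1.76 in TIM with an adjusted p of 0.031.

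The most abundant member, miR-25-3p, is the guide strand with the miR-25 seed. It measured 1484, 1169 and 1551 CPM in AG. Its levels ran from 1541 through a median of 2384 to 4169 CPM in TI and from 505 through a median of 3069 to 3740 CPM in TIM. The lowest TI library lay just under the highest AG library, and the other 6 TI libraries and 6 of 8 TIM libraries exceeded all of AG. The log2 fold changes were 0.78 in TI (95% interval -0.30 to 1.87, adjusted p = 0.21 from limma) and 0.64 in TIM (-0.42 to 1.70, adjusted p = 0.30). Without TIM library 2, the value in TIM was 0.94 (adjusted p = 0.044 from limma).

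The passenger strands did not pass in either tumor type. For miR-93-3p the log2 fold changes were 0.41 in TI (adjusted p = 0.43 from limma) and 0.59 in TIM (adjusted p = 0.24), with 41 to 112 reads in AG and 22 to 187 reads in the tumors. For miR-25-5p they were 0.19 (adjusted p = 0.80) and 0.73 (adjusted p = 0.28), with levels of 1.27 to 6.17 CPM in TI and 0.538 to 10.3 CPM in TIM that enclosed the AG values of 4.11, 1.68 and 1.94 CPM.

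**Figure D1:**
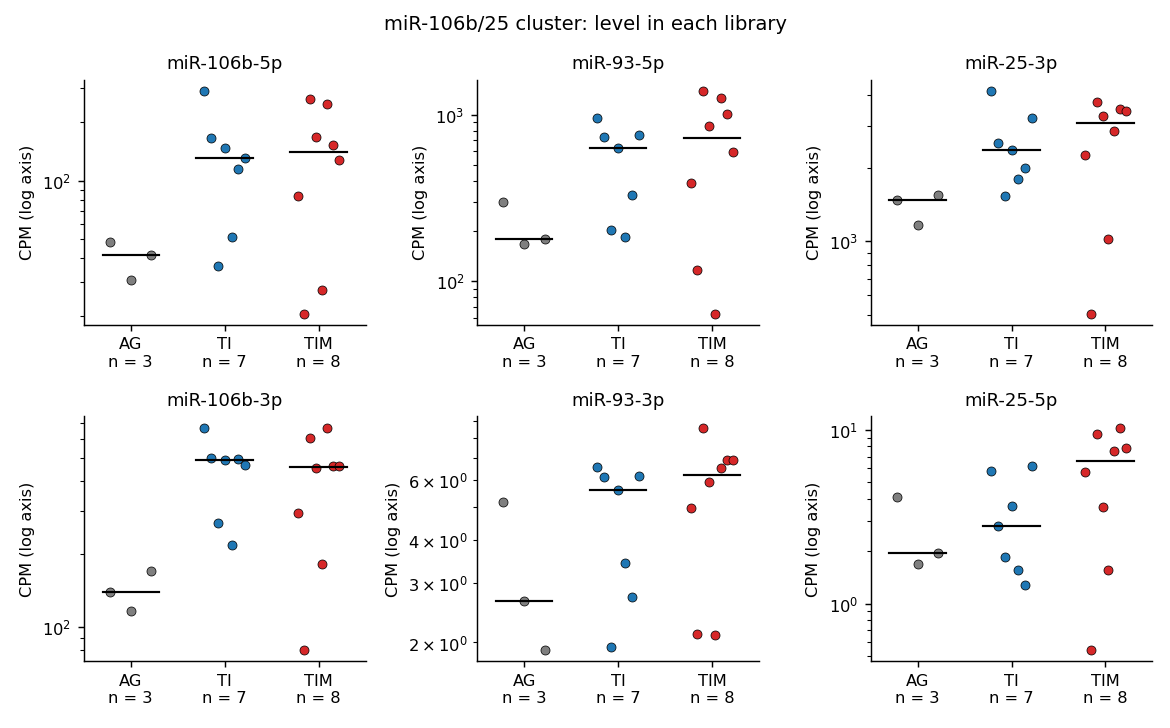
Level in CPM (log axis) of each miR-106b/miR-25 strand in the AG (n = 3), TI (n = 7) and TIM (n = 8) libraries, with points for libraries in column order and a bar for the group median. For miR-106b-3p all TI points lie above all AG points, and 2 low TIM points, libraries 2 and 5, recur for miR-106b-5p, miR-93-5p and miR-25-3p.

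The same TIM libraries were low for several strands. Library 2 lay below all AG libraries for 5 of the 6 strands and library 5 for 4 of them, and in TI libraries 5 and 6 did so for 1 strand each. These 2 TIM libraries were the deepest of the group, with 22654966 and 23435621 reads. In contrast, 4 TIM libraries and 2 TI libraries exceeded all AG libraries for all 6 strands. The tumor site of these libraries cannot be told from the columns.

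The members of the X-chromosomal miR-106a/miR-363 cluster were rare. In TI, miR-20b-5p and miR-363-3p were called lower, and in TIM miR-363-3p was. Each of these calls was lost without AG library 1, and each was lost with miR-148a-3p removed from the totals. Of the 4 members, 3 passed the filter of at least 1 CPM in at least 3 libraries. Their median log2 fold change was -1.50 in TI and -0.65 in TIM. The 2 calls in TI and 1 in TIM stand beside 29.3% and 25.9% of all miRNAs tested called lower.

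The miR-25 seed strand of the cluster, miR-363-3p, measured 12.9, 5.04 and 4.86 CPM in AG. It ran from 0.658 through a median of 1.09 to 4.51 CPM in TI and from 0.224 through a median of 1.59 to 6.83 CPM in TIM. All 7 TI libraries were below all AG libraries, which held for 24.4% of the miRNAs tested. In TIM, 6 of 8 libraries were below AG, and libraries 1 and 2, the latter at 6.83 CPM, lay within the AG range. In limma, the log2 difference from AG was -1.67 ± 0.50 for TI (SE, adjusted p = 0.0094) and -1.45 ± 0.49 for TIM (SE, adjusted p = 0.021). Without TI library 5 the former was -1.61 (adjusted p = 0.014). Without AG library 1, which held the highest level, the values were -1.26 in TI (adjusted p = 0.082) and -1.04 in TIM (adjusted p = 0.16), so both calls were lost without it. Removal of miR-148a-3p from the totals also ended both calls, with -1.34 in TI (adjusted p = 0.060) and -1.06 in TIM (adjusted p = 0.13). In TIM the call was further lost without the TMM factor (-1.20, adjusted p = 0.070), without a filter (adjusted p = 0.057) and in edgeR (-1.65, adjusted p = 0.057).

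For miR-20b-5p, a strand with the miR-17 seed, the AG libraries measured 6.56, 2.05 and 2.08 CPM. The TI libraries ran from 0.160 through a median of 0.366 to 1.66 CPM, which is 2 to 24 reads. The TIM libraries ran from 0.224 through a median of 1.09 to 9.29 CPM. All TI libraries were below all AG libraries, as was found for 24.4% of the miRNAs tested. The TIM libraries straddled the AG libraries, with 6 of 8 below and library 2 above. In limma, the log2 difference from AG was -1.50 ± 0.54 for TI (SE, adjusted p = 0.025) and -0.65 ± 0.53 for TIM (SE, adjusted p = 0.32). It was -1.44 in TI without TI library 5 (adjusted p = 0.035) and -1.07 without AG library 1 (adjusted p = 0.17). The size in TI moved with the pseudocount, from -2.65 at 0.1 CPM to -0.60 at 5 CPM, where the call was lost (adjusted p = 0.053), and edgeR and DESeq2 on the recovered reads gave -2.70 and -2.82. It was also lost after removal of miR-148a-3p from the totals (adjusted p = 0.082) and without a filter (adjusted p = 0.075).

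In miR-106a-5p, 9 to 28 reads in AG corresponded to 1.29, 0.699 and 0.416 CPM. Its levels ran from 0.0880 through a median of 0.951 to 1.64 CPM in TI and from 0.447 through a median of 1.67 to 3.16 CPM in TIM. In TI, 3 libraries had 1 or 2 reads, while 5 of 8 TIM libraries exceeded all AG libraries. The log2 fold changes were -0.13 in TI (adjusted p = 0.77 from limma) and 0.52 in TIM (adjusted p = 0.20). The sign in TI turned to 0.07 when miR-148a-3p was removed from the library totals.

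The last member, miR-18b-5p, had 10, 3 and 3 reads in AG, 0 to 19 in TI and 1 to 12 in TIM. It did not pass the filter and was not tested. Its highest level was 1.67 CPM in TI library 3, and 2 TI libraries held 0 reads, which allows up to 3 reads. Of the other strands of this cluster, no library held a read of miR-18b-3p or miR-19b-2-5p. The other strand of the miR-363 hairpin, miR-363-5p, ran from 0.420 to 0.786 CPM in AG, up to 0.277 CPM in TI and up to 0.707 CPM in TIM, and its mean in AG of 0.602 CPM was above the 0.247 CPM of miR-18b-5p.

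**Figure D2:**
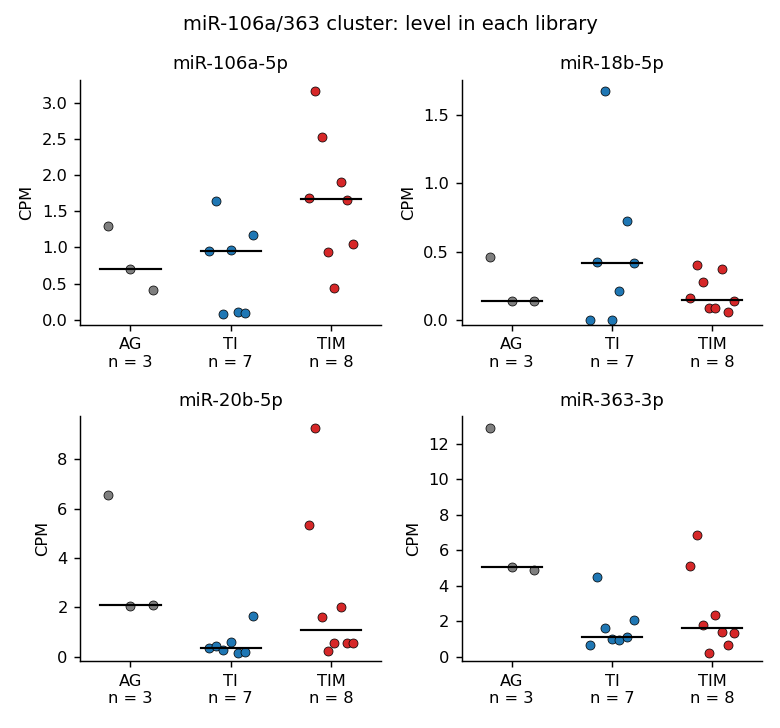
Level in CPM (linear axis from 0) of the 4 miR-106a/miR-363 members in the AG (n = 3), TI (n = 7) and TIM (n = 8) libraries, with points for libraries and a bar for the median. All TI points of miR-20b-5p and miR-363-3p lie under the AG points, while TIM libraries 1 and 2 reach 5.33 and 9.29 CPM for miR-20b-5p.

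In AG library 1, all 4 members of the cluster were at the highest level of the group. The same held for miR-106b-5p, miR-93-5p, miR-17-5p, miR-20a-5p and miR-92a-3p, whereas miR-106b-3p and miR-25-3p were highest in AG library 3. In TIM library 2, miR-106a-5p, miR-18b-5p, miR-20b-5p and miR-363-3p were all at the highest level of TIM, in the library with the lowest miR-106b-3p. No TI library was highest for all 4, with the maximum of miR-18b-5p in library 3, those of miR-106a-5p and miR-363-3p in library 2 and that of miR-20b-5p in library 7. Markers of other cells moved with the tumor groups too. The summed level of 6 leukocyte miRNAs ran from 654 to 1039 CPM in AG, 273 to 1372 CPM in TI and 145 to 518 CPM in TIM, with 3 and 4 of the 6 called lower. The 2 endothelial miRNAs, miR-126a-3p and miR-126a-5p, summed to 38529 to 46092 CPM in AG, 1704 to 6736 CPM in TI and 2428 to 8943 CPM in TIM, and both were called lower in each tumor type. For smooth muscle and stroma the sums were 124324 to 210988 CPM in AG, 16134 to 171667 CPM in TI and 16240 to 101974 CPM in TIM, with 4 of 5 called lower in each. Of the 4 erythroid and 5 epithelial miRNAs, 0 were called in either tumor type by limma or had an unadjusted p under 0.05, edgeR called 0 and DESeq2 called 1 epithelial miRNA in TI. All of these markers had reads in every library. Their part in the lower levels of miR-363-3p and miR-20b-5p was not tested.

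Between the tumor types, none of the 9 members tested passed in limma, while 5.23% of all miRNAs tested did, 3.44% as higher in TIM and 1.79% as lower. At an unadjusted p under 0.05 there was 1, miR-106a-5p, with a log2 fold change of TIM over TI of 0.65 (95% interval 0.13 to 1.18, adjusted p = 0.11). The edgeR test called 0 and DESeq2 called 1, miR-20b-5p, at 2.24 (adjusted p = 0.018). For miR-20b-5p limma gave 0.85 (-0.00 to 1.70, adjusted p = 0.22). In miR-106b/miR-25, the strands with the miR-17 or miR-25 seed had wide intervals. These were -1.29 to 1.02 for miR-106b-5p, -1.23 to 1.34 for miR-93-5p and -0.95 to 0.67 for miR-25-3p. Those of miR-106b-5p and miR-93-5p include a doubling and a halving. The direction of these small differences turned with the scaling. The log2 fold change of miR-25-3p was -0.14 with the deposited values and 0.42 without the TMM factor, which moved the median of all miRNAs tested from 0.06 to 0.49.

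**Figure D3:**
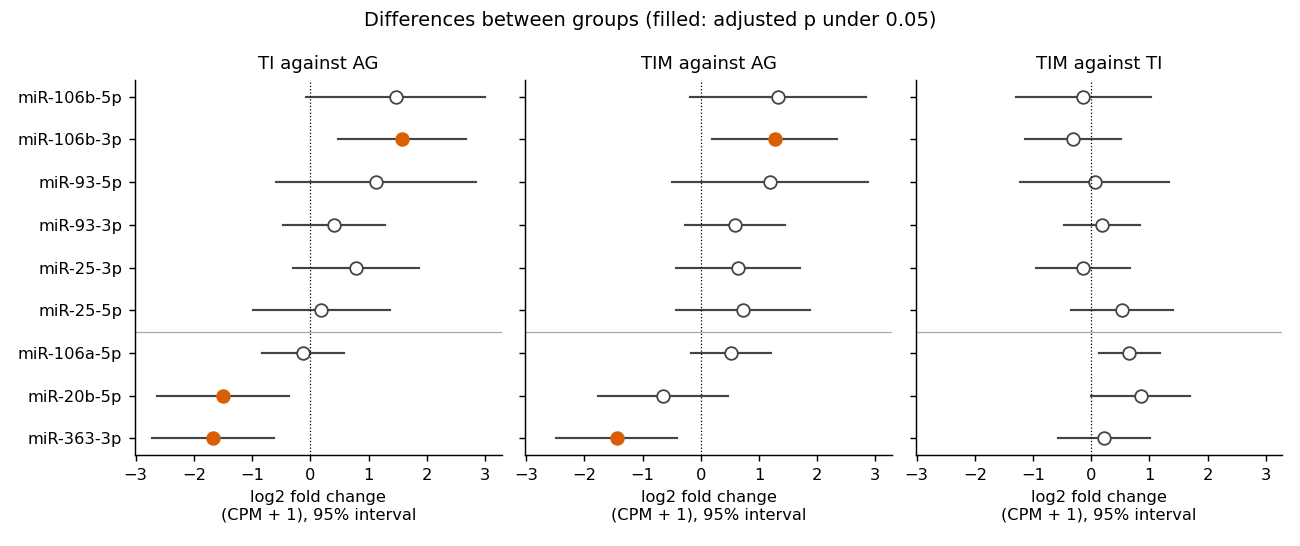
log2 fold change on the CPM + 1 scale (horizontal axis) with its 95% interval from limma for the 9 members tested, in TI against AG, TIM against AG and TIM against TI. Filled points passed an adjusted p of 0.05, namely miR-106b-3p, miR-20b-5p and miR-363-3p in TI and miR-106b-3p and miR-363-3p in TIM.

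A ratio of strands within a library does not depend on its scaling, except through the pseudocount of 1 CPM in the log2 ratios that were tested. The 3p strand of miR-106b outnumbered the 5p strand with the miR-17 seed in every library, by a median of 3.77-fold in AG, 3.57-fold in TI and 3.27-fold in TIM. For miR-93 the 5p strand dominated, with a median of 63.2-fold in AG, 119-fold in TI and 115-fold in TIM. The 3p strand of miR-25 exceeded its 5p strand by a median of 697-fold in AG, 834-fold in TI and 419-fold in TIM. In 9 exact permutation tests of these ratios, none passed after adjustment, and 1 had an unadjusted p under 0.05. The smallest possible p of this test with 3 AG libraries was 0.0167 against TI and 0.0121 against TIM. A single ratio differing from AG could therefore not have passed the adjustment over 9 tests on its own. The log2 ratio of miR-25-5p to miR-25-3p differed by 0.68 between TIM and TI (p = 0.0065, adjusted p = 0.059, exact permutation test, two-sided). The TIM libraries ran from -9.49 to -8.29 and the TI libraries from -9.79 to -8.81 in this ratio, so the groups overlapped. Counting the permutations with an equal or larger absolute difference gave an exact permutation p of 0.0054, which passed after adjustment.

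For the miR-17 seed, the shares show which cluster supplies it, also without dependence on scaling. In the 6 miRNAs with the miR-17 seed, miR-93-5p was the largest single component in all AG and TI libraries and in 7 of 8 TIM libraries, at 50.6% to 53.5% in AG, 34.9% to 48.0% in TI and 35.3% to 44.1% in TIM. The AG libraries were above all tumor libraries in this share. The share of miR-106b-5p was 8.26% to 12.3% in AG, 7.24% to 16.2% in TI and 6.24% to 17.5% in TIM. Together these 2 miRNAs of miR-106b/miR-25 gave 58.9% to 65.6% of the seed in AG, 43.1% to 62.7% in TI and 42.0% to 58.1% in TIM. The miR-17/92 cluster gave 33.6% to 39.8%, 37.3% to 56.8% and 41.2% to 57.9%. The miR-106a/miR-363 cluster gave 0.741% to 1.34% in AG, 0.0383% to 0.157% in TI and 0.0568% to 4.24% in TIM, where the highest value was in TIM library 2. The summed level of the seed was 314 to 586 CPM in AG, 385 to 2592 CPM in TI and 157 to 3926 CPM in TIM. These shares are a description and were not tested.

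**Figure D4:**
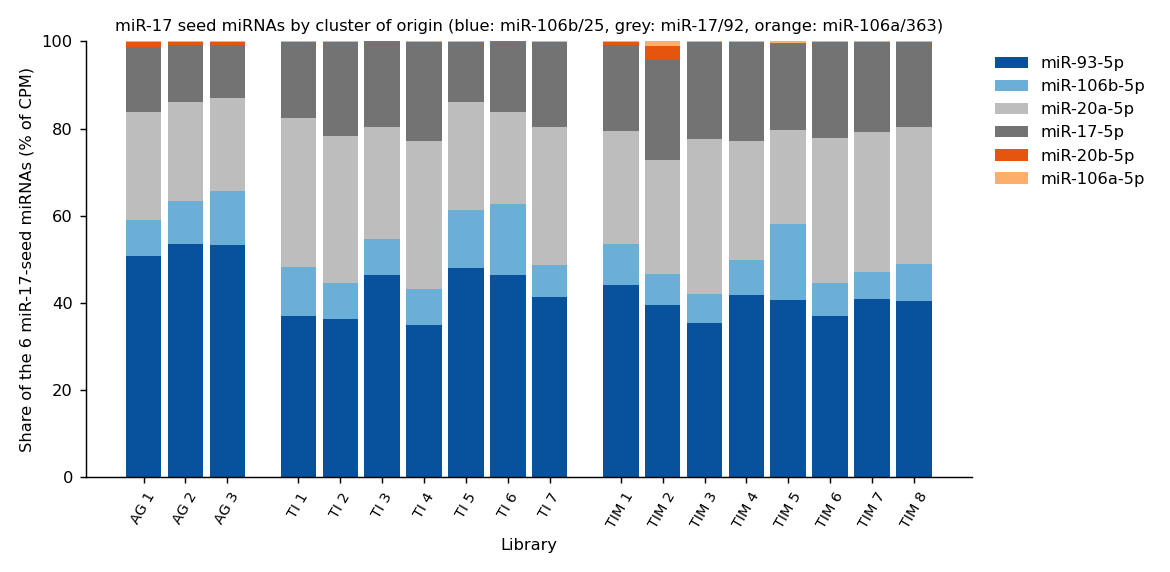
Share of the summed CPM of the 6 miR-17-seed miRNAs (vertical axis, percent) in each of the 18 libraries, with blue for miR-106b/miR-25, grey for miR-17/92 and orange for miR-106a/miR-363. The dark blue miR-93-5p segment is 50.6% to 53.5% in AG and at most 48.0% in any tumor library, and the orange segments are visible in AG and in TIM libraries 1, 2 and 5.

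Among miR-25-3p, miR-92a-3p and miR-363-3p, which share the miR-25 seed, miR-25-3p supplied 65.1% to 74.5% in AG. It gave 52.0% to 70.7% in TI and 53.3% to 66.7% in TIM, and miR-92a-3p gave nearly all of the rest. With miR-92b-3p, miR-32-5p and miR-367-3p of the same seed added, the share of miR-25-3p in AG was 62.5% to 71.7%. In that sum miR-32-5p took 3.19% to 3.42% in AG, 0.572% to 1.04% in TI and 0.476% to 1.49% in TIM. Without these additions, the share of miR-363-3p was 0.233% to 0.566% in AG, 0.00876% to 0.0943% in TI and 0.00396% to 0.734% in TIM. The X-chromosomal cluster also encodes miR-92a-3p, so the share of miR-92a-3p cannot be assigned to a single cluster. For the miR-18 seed, miR-18b-5p took 8.11% to 11.2% in AG, 0% to 16.7% in TI and 0.105% to 8.96% in TIM, beside miR-18a-5p. These shares rest on few reads of miR-18b-5p.

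Each member was also set against its miR-17/92 paralog within a library. For miR-25-3p and miR-363-3p this was miR-92a-3p, which the X-chromosomal cluster encodes as well. The mean of each of the 7 log2 ratios was lower in both tumor types than in AG. Of the 21 exact permutation tests, 10 had an unadjusted p under 0.05 and 0 passed after adjustment, with a lowest adjusted p of 0.058. With 3 AG libraries the smallest two-sided p possible was 0.0167 against TI and 0.0121 against TIM. The ratio of miR-20b-5p to miR-20a-5p differed by -3.31 on the log2 scale between TI and AG (p = 0.0167, adjusted p = 0.058, exact permutation test). In that comparison every TI library, from -9.35 to -6.37, lay below every AG library, from -4.57 to -4.28. In TIM this ratio differed from AG by -2.56 (p = 0.16, exact permutation test), with TIM library 2, at -2.92, above all AG libraries. The value for TI ran from -4.66 to -2.37 under the other settings. The ratio of miR-363-3p to miR-92a-3p differed by -3.10 in TI (p = 0.0167, exact permutation test), with all TI libraries below all AG libraries. In TIM it differed by -2.82 (p = 0.048, exact permutation test), and libraries 1, 2 and 5 lay highest. Of these, TIM library 2, at -5.74, was above all AG libraries, from -6.49 to -5.82. For miR-106a-5p against miR-17-5p the difference was -2.06 in TI (p = 0.0167, exact permutation test) and -1.71 in TIM (p = 0.15). Here TIM libraries 2 and 5, at -4.03 and -4.47, were above all AG libraries, from -5.26 to -4.64. For miR-18b-5p against miR-18a-5p it was -2.62 in TI (p = 0.0167) and -3.26 in TIM (p = 0.0121), both from exact permutation tests. With miR-18b-5p at no more than 1.67 CPM in any library, these values depend on the pseudocount of 1 CPM. As a share of the summed miR-18a-5p and miR-18b-5p, without a pseudocount, miR-18b-5p was at 8.11% to 11.2% in AG. TI library 3 was above this at 16.7%, and TIM library 2 lay within it at 8.96%. The mean of miR-18b-5p itself was 0.247 CPM in AG, 0.494 CPM in TI and 0.198 CPM in TIM.

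The miR-106b/miR-25 strands differed from their paralogs by less. The ratio of miR-93-5p to miR-20a-5p differed by -0.67 in TI (p = 0.033, exact permutation test) and -0.72 in TIM (p = 0.0121, exact permutation test), and all TIM libraries, from -0.01 to 0.90, lay below all AG libraries, from 1.02 to 1.30. The ratio of miR-25-3p to miR-92a-3p differed by -0.64 in TI (p = 0.050, exact permutation test) and -0.73 in TIM (p = 0.036, exact permutation test), with overlap in both. The ratio of miR-106b-5p to miR-17-5p differed by -0.47 in TI (p = 0.25, exact permutation test) and -0.90 in TIM (p = 0.048, exact permutation test). Between TIM and TI, the 7 ratios differed by -0.64 to 0.75 with 0 unadjusted p-values under 0.05. With permutations counted by absolute difference, 3 ratios passed after adjustment in TI and 2 in TIM. Of the 11 miR-17/92 strands tested, 1 passed as higher in TI and 7 in TIM, beside 26.4% and 25.5% of all miRNAs tested, with median log2 fold changes of 1.16 and 1.48 over all 11. These counts were not stable, with 4 to 8 in TI under 5 other settings, among them edgeR and DESeq2, and 1 in TIM without a filter. Of the miR-25 seed strands outside the 3 clusters, 2 of 3 were tested, and 1 was called lower in each tumor type.

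**Figure D5:**
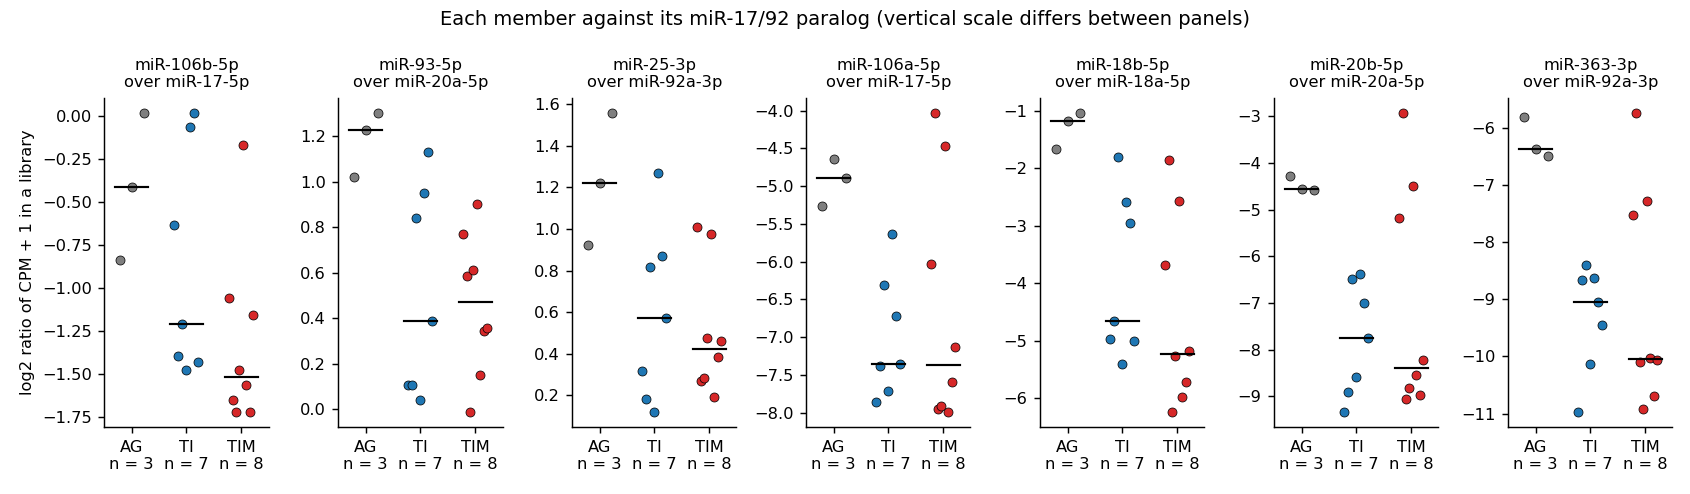
log2 ratio of CPM + 1 between each member and its miR-17/92 paralog (vertical axis, a scale of its own in each panel) for the AG (n = 3), TI (n = 7) and TIM (n = 8) libraries, with a bar for the median. For miR-20b-5p, miR-363-3p, miR-106a-5p and miR-18b-5p all TI points lie below all AG points, and for miR-93-5p and miR-18b-5p all TIM points do. The separation for miR-18b-5p depends on the pseudocount, since its share of the pair in TI library 3 exceeded that in all AG libraries.

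Among the 387 other miRNAs averaging at least 10 CPM, those with the profile most like the mean of miR-106b-5p, miR-93-5p and miR-25-3p across the 18 libraries were miR-15b-5p, miR-15b-3p, miR-7a-1-3p, miR-181c-3p and miR-301a-5p. Their root mean square differences from it, after centring on the log2 scale, were 0.61 to 0.71, against a median of 1.46 over all candidates. The paralog miR-92a-3p, which was left out of the ranking, was closer at 0.24. For the mean of the 4 miR-106a/miR-363 members, the nearest were let-7c-5p, miR-107-3p, miR-140-5p, miR-674-5p and miR-148b-5p, at 0.42 to 0.48 against a median of 1.17. The levels of these 4 members lie near the pseudocount of 1 CPM.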

How the data were processed

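Small RNA of 3 AG, 7 TI and 8 TIM samples was sequenced. Per the labels' processing notes, the authors used cutadapt 2.8, Bowtie2 2.3.5.1, featureCounts 2.0.0 and edgeR 3.40 with the mm10 build. The deposited signal is CPM per mature miRNA, which the authors scaled by the library total times its TMM factor. A log2 fold change, p-value and FDR per comparison, which the authors deposited too, were not used. The treatment of reads with several matches is not given in the sources used here.

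The value of 1 read was found from the low values of each library, and 100% of the values were whole multiples within 0.001, so reads could be recovered. Total reads per library ran from 11641696 to 23435621, and limits from read counts cover counting error only. No 2 libraries of a group were identical (52 pairs). Differences were fitted in limma 3.58.1 (with a mean-variance trend, R 4.3.3) on log2(CPM + 1) with all 18 libraries in one model, for 726 miRNAs that reached 1 CPM in 3 or more libraries, with Benjamini-Hochberg adjustment over all of them and a threshold of 0.05. The deposited values are not whole counts, so edgeR 4.0.16 (quasi-likelihood) and DESeq2 1.42.0 on recovered reads were alternatives. Within-library ratios were tested by exact two-sided permutation over libraries, doubling the smaller tail, with adjustment over 9 strand ratios and 21 paralog ratios, in Python 3.11.15 with scipy 1.17.1. The tests were tested on simulated data. Members were named in full, with the 12 miR-17/92 strands, the other strands of the X-chromosomal hairpins, marker lists of other cell types and the 5 miRNAs of the most similar profile. The members and lists were chosen with earlier results of these data known. Further alternatives were pseudocounts of 0.1 and 5, 3 other scalings, other filters, only the 2 groups compared, and each library left out in turn. Mature sequences matched for 10 of 10 members, and for 29 of 31 miRNAs in all.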

Additional observations from a re-analysis of the deposited data

Results flagged for a closer look

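In 40 groups of values (10 members and 10 within-library ratios, each in TI and TIM), the gap between the highest or the lowest library and its neighbour was compared with the range of the group by Dixon's criterion, and 4 stood out, where chance alone gives about 1 in 20 groups, or 2. For miR-20b-5p, TI library 7 was at 1.66 CPM with the next at 0.603 CPM, a gap of 0.611 of the range on the log2(CPM + 1) scale. In TIM library 5, the log2 ratio of miR-106b-5p to miR-106b-3p was -2.69 with the next at -1.90 (0.53 of the range), and that of miR-106b-5p to miR-17-5p was -0.17 with the next at -1.06 (0.573 of the range). In TIM library 4, the log2 ratio of miR-25-5p to miR-25-3p was -9.49 with the next at -8.64 (0.706 of the range).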

How the results depend on the processing

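No paired analysis was possible because no replicate number stands in the columns. Of 255 log2 fold changes of members under other settings, 228 kept their direction and side of the threshold, and of 324 with one library left out, 295 did. Members called in TI against AG were 3, and 1 after removal of miR-148a-3p from the totals or with a filter of 10 CPM, 2 with a pseudocount of 5, without the TMM factor or without a filter, and 4 with only the 2 groups or with DESeq2. In TIM against AG they were 2, but 1 without the TMM factor, with median ratio scaling, without miR-148a-3p in the totals, with a filter of 10 CPM, with only the 2 groups in the model and with edgeR, 0 without a filter and 4 with DESeq2. In TIM against TI they were 0, but 1 without the TMM factor (miR-106a-5p) and 1 with DESeq2 (miR-20b-5p), and the 38 miRNAs called in all became 21 with a pseudocount of 5 or without a filter, 155 without the TMM factor, 17 with a filter of 10 CPM, 23 with only the 2 groups, 3 with edgeR and 123 with DESeq2. The filter of 10 CPM removes the rare members from the test, and elsewhere the cause was not tested. Strand ratios called in TIM against TI were 1 with the p from the absolute difference, and paralog ratios were 3 in TI and 2 in TIM, instead of 0.

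With one library left out, 294 to 431 miRNAs were called in TI against AG, 227 to 383 in TIM against AG (227 without AG library 1) and 24 to 68 in TIM against TI (24 without TI library 1, 2 or 6, 25 without TIM library 6, 62 without TI library 4 and 68 without TI library 7). Members called then numbered 0 to 3 in TI (0 without AG library 1), 0 to 4 in TIM (0 without AG library 1, 4 without TIM library 2, 2 without TIM library 5 and 1 without any other), and stayed at 0 between tumor types, and strand ratios called in TIM against TI ran from 0 to 1 (1 without TI library 7 or TIM library 4). Fits without an AG library have 2 libraries in that group.

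The miR-17/92 strands called, 1 in TI and 7 in TIM, became 4 with a pseudocount of 0.1, 5 without miR-148a-3p, 2 with a filter of 10 CPM, 6 with only the 2 groups or with edgeR and 8 with DESeq2 in TI, and 1 without a filter, 3 with a filter of 10 CPM and 4 with median ratio scaling in TIM, and with one library left out 1 to 5 in TI (3 and 5 without TI libraries 3 and 5), against 1 to 9 in TIM (1 without AG library 1 or 3, 2 without AG library 2, 4 without TIM library 3, 4, 6, 7 or 8). The share of calls that were higher in TI moved from 47.4% to 59.3%, and that in TIM from 49.6% to 65.7%, without miR-148a-3p in the totals, when the median of all miRNAs tested was 0.34 and 0.57. Between the tumor types it was 65.8%, but 89.0% without the TMM factor and 50.9% with median ratio scaling.

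Reversals concerned small differences that had not passed. In TI against AG, miR-106a-5p was 0.071 without miR-148a-3p in the totals, and -0.29 to 0.061 with one library left out. In TIM against TI, miR-106b-5p was 0.42 without the TMM factor, 0.027 with edgeR and 0.051 with DESeq2 (-0.40 to 0.19 with one library left out), miR-106b-3p was 0.25 without the TMM factor, miR-25-3p was 0.42, 0.030 and 0.019 under the same 3 settings (-0.25 to 0.16), and miR-93-5p was -0.0048 with median ratio scaling (-0.16 to 0.47). The strand ratio of miR-25 in TIM against AG was -0.20 with a pseudocount of 5 (-0.11 to 0.32 with one library left out), that of miR-106b lay between -0.23 and 0.047 in TI, while in TIM it ran from -0.042 to 0.21, and that of miR-93 between tumor types from -0.29 to 0.15. The paralog ratio of miR-106a-5p in TIM against TI was -0.081 with a pseudocount of 5 (-0.017 to 0.58 with one library left out), and the ratios of miR-93-5p ran from -0.12 to 0.058, of miR-25-3p from -0.17 to 0.027 and of miR-363-3p from -0.19 to 0.55.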
